A study of Danio rerio with 2 samples.

Results

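Esm1, apelin with its receptors, and the angiopoietin-Tie genes were followed across the endothelium of the zebrafish tail. There were 7 genes, esm1, apln, aplnra, aplnrb, angpt2a, tie1 and tek, taken by symbol from a feature list of 27421 rows and 26764 symbols. Each had 1 row in both matrices and was found in both libraries. The genes were picked by name, but with earlier results of these data known.

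Apelin is a secreted peptide that signals through G-protein coupled receptors, which zebrafish encode in the pair aplnra and aplnrb, and in zebrafish this signalling drives the sprouting of vessels in the trunk. The sprouting tip cells of growing vessels are known for making apelin, the secreted proteoglycan encoded by esm1, and angiopoietin-2. Angiopoietin-1 activates the receptor tyrosine kinase Tie2, encoded by tek, while angiopoietin-2 acts on it as an agonist or antagonist by context. Tie1 is a related receptor with no well-established high-affinity angiopoietin of its own, and in zebrafish it is required for development of lymphatic vessels.

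The data are single-cell RNA counts of tails, cut behind the yolk end, from embryos of the AB strain at 48 h post fertilisation. All cells came from embryos with the genotype TgBAC(isl1:TagRFP);Tg(dab2:EGFP), in which regulatory sequence of the transcription factor gene isl1 drives TagRFP and that of the adaptor gene dab2 drives EGFP. Both fractions were sorted as live and EGFP-positive, so that cells without dab2 reporter protein were selected against in either. The TagRFP-positive fraction is the library labelled isl1-derived, and the TagRFP-negative fraction is the library labelled other. The comparison sets tail endothelium of isl1-expressing descent against other tail endothelium. With 1 library in each there was no replicate and no test. All intervals are 95% intervals that cover counting error only, and UMIs (unique molecular identifiers) were taken as counts of molecules.

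The deposited matrices held 2072 barcodes (library labelled isl1-derived) and 730 (library labelled other), with 26865577 and 5698957 UMIs. After filtering, 2015 and 708 cells remained, with medians of 9757 and 6636 UMIs, and the libraries shared 0 barcodes. RNA of the sorted reporter ran against the labels. TagRFP stood at 2.69 CPM (UMIs scaled to 1e6 per class) in the library labelled isl1-derived and at 129 CPM in the library labelled other, and isl1 at 1.97 and 129 CPM. In endothelial cells TagRFP had 5.57 and 28.3 CPM. Of the 733 TagRFP UMIs in the library labelled other, 119 lay in endothelial cells and 506 in a cluster of 22 cells, found in that library alone, that counts isl1 among its leading genes. The names of the deposited files also run against the labels, so every direction between the libraries below carries this conflict. In endothelial cells, all 5 neutrophil markers in the library labelled isl1-derived summed to 101 CPM and 4 of 5 in the library labelled other to 13.8, with mmp13a at 0 there. The erythroid list had 97.2 (7 of 7 markers) and 36.1 CPM (5 of 7, alas2 and gata1a at 0), and the muscle list 87.9 and 209 CPM (4 of 4 in each). Their part in the results between the libraries was not tested.

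Endothelial cells were those with at least 10 UMIs per 10000 of cdh5, tie1, egfl7 and clec14a together. This gate took 1369 cells, 67.9% of the library labelled isl1-derived, and 586 cells, 82.8% of the library labelled other. The 4 listed endothelial markers outside the gate were all present, at a summed 3049 and 2344 CPM. The gate contains tie1, whose level in it is therefore a description. The cells were split at 10 UMIs per 10000 by aqp8a.1, a water channel gene of arteries, and stab2, a scavenger receptor gene of veins, which gave 657 and 129 aqp8a.1-high cells, 84 and 78 with both, 238 and 62 with neither, and 390 and 317 stab2-high cells in the libraries labelled isl1-derived and other. The 6 listed arterial markers other than aqp8a.1 summed to 1712 CPM in aqp8a.1-high and 164 CPM in stab2-high cells of the library labelled isl1-derived, and the 6 venous markers other than stab2 to 925 and 7805 CPM. The library labelled other had 1440 and 185 CPM of these arterial markers, and 1513 and 8563 CPM of the venous ones. Blood progenitors, with under 10 UMIs per 10000 of the endothelial genes, under 20 of neutrophil genes and at least 3 of myb, runx1, gata2b and gfi1aa, were 356 and 34 cells. The 34 cells are too few to compare and are given only as values.

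Esm1 (ENSDARG00000104370) was an aqp8a.1-side gene. It stood at 1308 CPM (exact Poisson interval 1278 to 1338) in aqp8a.1-high cells of the library labelled isl1-derived, 328 (305 to 353) in cells with neither gene, 161 (134 to 191) in cells with both, 42.1 (35.1 to 50.2) in stab2-high cells and 12.6 (10.3 to 15.2) in blood progenitors. These levels form an order in which no neighbouring intervals overlap. The same classes of the library labelled other had 746 CPM (691 to 804), 98.8 (71.8 to 133), 113 (88.5 to 142), 23.6 (17.6 to 30.9) and, in 34 blood progenitors, 6.37 (1.74 to 16.3), and here the classes with neither and with both cannot be ranked. The ratio of aqp8a.1-high over stab2-high cells was 31.0 (exact conditional binomial interval 26.0 to 37.3) for the library labelled isl1-derived and 31.6 (23.8 to 42.8) for the library labelled other.

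Apln (ENSDARG00000053279), the ligand gene, had the same leading class. It stood at 341 CPM (326 to 357) in aqp8a.1-high cells of the library labelled isl1-derived, 130 (115 to 146) in cells with neither, 38.2 (25.8 to 54.6) in cells with both and 11.7 (8.15 to 16.3) in stab2-high cells. The library labelled other gave 206 CPM (177 to 237), 101 (73.7 to 135), 18.6 (9.59 to 32.4) and 9.52 (5.90 to 14.6), with overlapping intervals for the lowest pair only. Ratios of aqp8a.1-high over stab2-high cells were 29.2 (20.9 to 42.0) and 21.6 (13.7 to 35.7) in the libraries labelled isl1-derived and other.

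Angpt2a (ENSDARG00000014946), a zebrafish angiopoietin-2 gene, was rare. The library labelled isl1-derived held 96 endothelial UMIs of it in all, 89 of them in aqp8a.1-high cells at 16.1 CPM (13 to 19.9) and 0 in stab2-high cells. The exact interval of this ratio starts at 12.8, and 3 counts in place of the 0 would give a ratio of 16.1. The library labelled other held 6 endothelial UMIs in 3 cells, with 1 UMI in aqp8a.1-high and 3 in stab2-high cells, a ratio of 0.809 (0.015 to 10) that gives no order. In blood progenitors of the library labelled isl1-derived 1 UMI was found.

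Of the receptor genes, aplnra, tie1 and tek ran the other way and aplnrb ran with the ligands, by less. Aplnra (ENSDARG00000002172) stood lowest among endothelial classes in aqp8a.1-high cells of the library labelled isl1-derived, at 127 CPM (118 to 137), followed by 229 (209 to 250) in cells with neither, 540 (490 to 594) with both and 553 (526 to 580) in stab2-high cells, the last pair overlapping. Its levels in the library labelled other were 224 CPM (195 to 257), 222 (181 to 271), 741 (676 to 810) and 617 (585 to 651) in the same order of classes, and aqp8a.1-high cells cannot be ranked against those with neither. Its ratios of aqp8a.1-high over stab2-high cells were 0.230 (0.211 to 0.252) and 0.364 (0.312 to 0.421).

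Aplnrb (ENSDARG00000036670) had 145 CPM (135 to 155) in aqp8a.1-high and 96.3 (85.5 to 108) in stab2-high cells of the library labelled isl1-derived, a ratio of 1.5 (1.31 to 1.73). The library labelled other had 135 CPM (112 to 161) and 102 (89.1 to 116), a ratio of 1.33 (1.06 to 1.66), with overlapping intervals of the levels. The make-up of the receptor pair thus differed by class: aplnra gave 46.8% (exact binomial interval 44.2% to 49.3%) of the pair's UMIs in aqp8a.1-high cells and 85.2% (83.5% to 86.7%) in stab2-high cells of the library labelled isl1-derived. Shares for the library labelled other were 62.4% (56.9% to 67.7%) and 85.8% (84.0% to 87.5%). These shares compare classes, not the abundance of the receptors.

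Tie1 (ENSDARG00000004105) stood at 288 CPM (274 to 302) in aqp8a.1-high and 423 (400 to 447) in stab2-high cells of the library labelled isl1-derived, and at 413 (372 to 456) and 520 (491 to 551) in that labelled other. Tek (ENSDARG00000028663) had 82.3 CPM (74.9 to 90.2) and 156 (142 to 171) in the same classes of the library labelled isl1-derived, and 124 (102 to 149) and 179 (162 to 198) in that labelled other. Ratios of aqp8a.1-high over stab2-high cells were 0.680 and 0.793 for tie1 and 0.527 and 0.694 for tek, in the libraries labelled isl1-derived and other. Cells with both splitting genes had tek at 178 and 182 CPM, close to the stab2-high levels. With tie1 left out of the gate, tie1 stood at 287 and 422 CPM in aqp8a.1-high and stab2-high cells of the library labelled isl1-derived.

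Over both libraries together, 2 of the 7 genes, esm1 and apln, were at least 2-fold higher in aqp8a.1-high than in stab2-high cells in each library, and 1, aplnra, was at least 2-fold lower. Of the 4141 genes with at least 100 UMIs in the sums compared, 3.28% were higher and 9.39% lower by this rule, and angpt2a fell short of that minimum in both libraries. In stab2-high cells apln had 35 UMIs (library labelled isl1-derived) and 21 (library labelled other), and esm1 had 52 in the latter. Apln, and esm1 in the library labelled other, thus reached 100 UMIs only through aqp8a.1-high cells. The count of 2 higher genes is therefore a description.

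**Figure D1:**
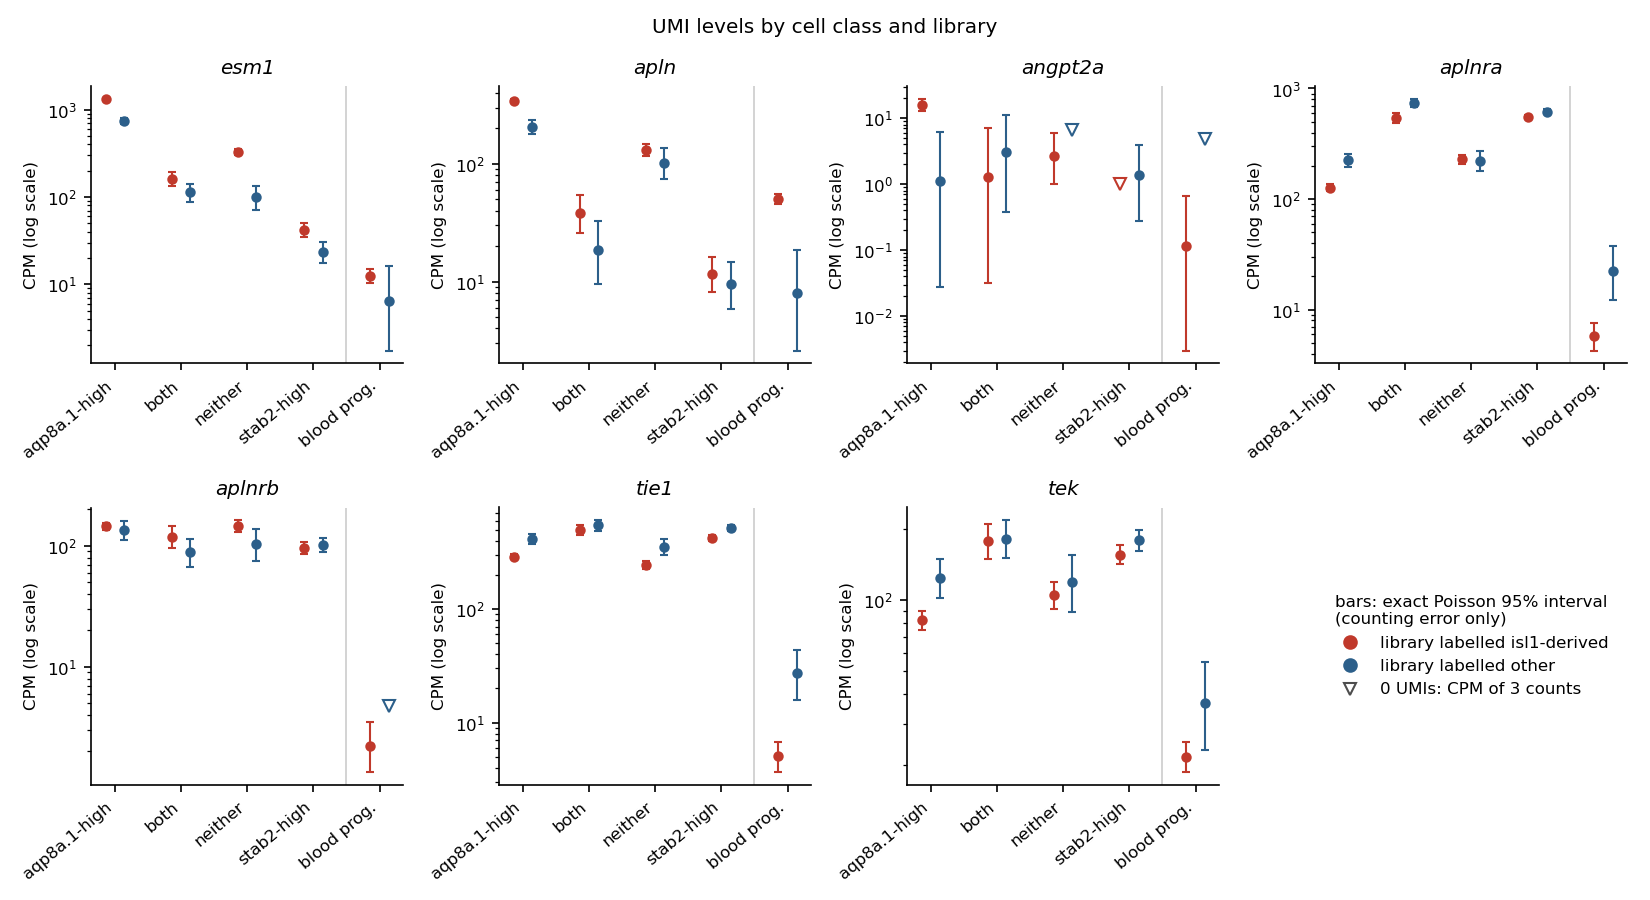
UMI levels of the 7 genes (CPM, log scale) in the 4 endothelial classes and in blood progenitors, with the library labelled isl1-derived left of the library labelled other in each class. Points are the sums of 1 library with exact Poisson 95% intervals, and open triangles stand at 3 counts where no UMI was found. Esm1 reaches 1308 and 746 CPM in aqp8a.1-high cells and 42.1 and 23.6 CPM in stab2-high cells, while aplnra shows the opposite order.

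Set against blood progenitors of the library labelled isl1-derived, the receptors and esm1 were endothelial. Esm1 had 712 CPM in endothelial cells and 12.6 in blood progenitors, aplnra 286 and 5.75, aplnrb 131 and 2.23, and tie1 329 and 5.05. These give ratios of 56.7 (46.9 to 69.3) for esm1, 49.7 (37.5 to 67.3) for aplnra and 58.6 (37.4 to 97.6) for aplnrb. Apln was nearer, at 194 CPM (186 to 203) against 50.6 (45.9 to 55.6), a ratio of 3.84 (3.46 to 4.27). Tek, a gene also known in blood stem cells of the mouse, had 112 CPM (106 to 119) against 21.7 (18.7 to 25.1), a ratio of 5.18 (4.44 to 6.08). Tie1 is a gate gene, so its difference was fixed by the choice of cells. The 5 other genes with 100 UMIs were all at least 2-fold higher in endothelial cells, as were 35.6% of 10211 genes in this comparison, while 17.5% were lower. The median log2 ratio of these 5 was 5.62, and that of all genes 0.41. Genes that go with the gate genes are also set apart by the choice of cells, so this count and median are a description. Aplnra had 3284 endothelial and 49 blood progenitor UMIs and aplnrb 1503 and 19, so both reached 100 UMIs through the endothelial sum.

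Cell depth differed in this comparison, with a median of 7887 UMIs in endothelial cells and 23969 in blood progenitors. Shares of cells with a UMI were therefore read after thinning each cell to 2000 UMIs, which left out 62 endothelial cells and 5 blood progenitors. Esm1 was then present in 27.3% of endothelial cells and 3.13% of blood progenitors, against 40.6% and 25.3% unthinned. Aplnra had thinned shares of 32.1% and 1.42% and tek of 20.6% and 3.99%. The share of blood progenitors that free RNA alone would give was not measured.

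Tek stood apart from tie1 in blood progenitors. It made up 81.1% (75.4% to 86.0%) of the UMIs of the tek and tie1 pair there, and 25.5% (24.3% to 26.7%) in endothelial cells of the same library. Over both libraries, 58 of the cells counted as blood progenitors lay in a cluster led by stm and bricd5. A further 13 lay in a mostly endothelial cluster led by scube3. The part of these cells in the share of tek was not tested. The gate holds tie1 and so bears on this share directly. With tie1 left out of the gate, the shares were 81.1% (75.4% to 86.0%) in blood progenitors and 25.5% (24.3% to 26.7%) in endothelial cells. The blood progenitors were again 356 cells with 185 tek and 43 tie1 UMIs, so this alternative left their share as it was. Cells rich in cdh5, egfl7 and clec14a were still kept out of them, and the part of the gate in the share was not tested. Shares in the library labelled other were 57.5% (40.9% to 73.0%) in 34 blood progenitors and 25% (23.4% to 26.7%) in endothelial cells, and with tie1 left out of the gate 48.9% (34.1% to 63.9%) in 35 blood progenitors and 25.2% (23.5% to 26.9%) in endothelial cells. Angpt1, the gene of the main Tie2 agonist, was higher in blood progenitors, whereas the level of tek itself was lower there. Angpt1 had 3.30 CPM in endothelial cells and 48.9 in blood progenitors of the library labelled isl1-derived, a ratio of 0.068 (0.0471 to 0.0943). The library labelled other had angpt1 at 4.52 and 70.0 CPM in these classes.

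Blood apln lay in few cells. A cluster of 79 cells, with 74 and 5 cells from the libraries labelled isl1-derived and other, held apln at 311 CPM (288 to 335) and 183 CPM (112 to 283). The progenitor gene myb was found in 71 of the 79 cells, and 48 of the 79 counted as blood progenitors by the gate. The apln levels of the cluster cover all its cells, whereas those outside it, given below, are of gated blood progenitors only. Haemoglobin genes lead the cluster by fold, but 10 cells held 99.8% of its hbae3 UMIs, and hbae3 was found in 30 cells and hbbe1.1 in 17. Blood progenitors outside this cluster had 4.83 CPM (3.37 to 6.72) and 1.77 CPM (0.0449 to 9.87). In the cluster 58 of 79 cells had an apln UMI, with 705 UMIs in all and up to 40 in 1 cell, and the 3 leading cells held 16.3% of them.

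These apln-positive cells showed little endothelial RNA. Their sum of the 4 gate genes had a median of 0.284 and a maximum of 2.55 UMIs per 10000, below the gate of 10. Esm1 stood at 8.40 CPM (4.70 to 13.9) and cdh5 at 10.6 (6.41 to 16.6) in them, near the 12.6 CPM of esm1 over all blood progenitors. The erythroid transcription factor gene gata1a was found in 29 of the 58 cells with an apln UMI, at 64.4 CPM (53.2 to 77.3), and in 1 of the 21 cells without one, at 17.1 (7.81 to 32.4). Alas2, of haem synthesis, was found in 6 of the 58 cells with an apln UMI and in 1 of the 21 without. Its levels there, 48.2 CPM (38.5 to 59.5) and 60.7 (41.5 to 85.8), have overlapping intervals that give no order. Myb stood at 203 CPM (183 to 225) in cells with an apln UMI and 292 (248 to 342) in those without. The cluster also had angpt1 at 68.1 and 55.0 CPM in the libraries labelled isl1-derived and other. Clusters were formed on all genes, so these levels are a description. Without the cluster, an alternative chosen after the data were seen, the apln ratio of endothelial cells over blood progenitors was 40.2 in place of 3.84.

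**Figure D2:**
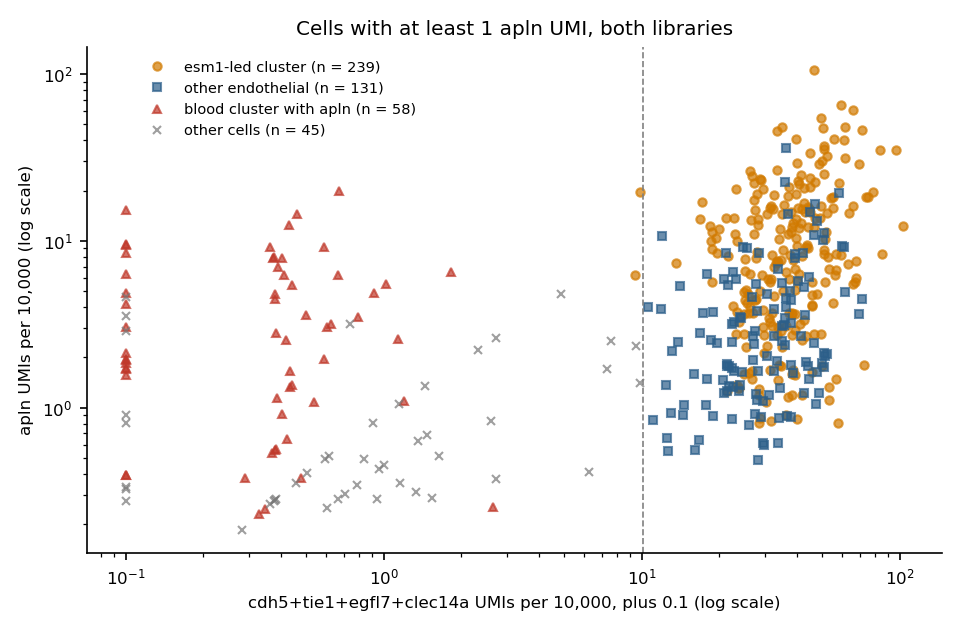
Each point is 1 cell with at least 1 apln UMI, from both libraries. The x axis gives the endothelial gate genes and the y axis apln, both in UMIs per 10000 on log scales with 0.1 added on x, and the dashed line marks the gate of 10. The 58 cells of the blood cluster with apln lie far left of the gate, at no more than 2.55, while nearly all cells of the esm1-led cluster lie right of it.

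Between the libraries, endothelial esm1, apln and angpt2a were higher and aplnra, tie1 and tek lower in the library labelled isl1-derived. Endothelial cells of the library labelled isl1-derived had esm1 at 712 CPM (697 to 728), and those of the library labelled other at 201 CPM (188 to 215), a ratio of 3.54 (3.29 to 3.80). Apln had 194 and 63.0 CPM in the libraries labelled isl1-derived and other, a ratio of 3.08 (2.71 to 3.52). Angpt2a had 96 UMIs in the library labelled isl1-derived and 6 in that labelled other, a ratio of 5.85 (2.59 to 16.3). These were the 3 of 7 genes at least 2-fold higher, against 1.63% of 9473 genes, and 0 of 7 were at least 2-fold lower, against 1.15%.

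The receptor genes lay on the other side, aplnrb excepted. Aplnra stood at 286 CPM (276 to 296) for the library labelled isl1-derived and at 509 (488 to 532) for that labelled other, a ratio of 0.561 (0.531 to 0.592). In the libraries labelled isl1-derived and other, tie1 had 329 and 483 CPM, a ratio of 0.681 (0.645 to 0.719), and tek 112 and 161 CPM, a ratio of 0.697 (0.634 to 0.765). Aplnrb had 131 and 107 CPM, a ratio of 1.22 (1.1 to 1.36). Scaling by TMM factors, which trim the most unequal genes, shifted all log2 ratios of this comparison by 0.14 and moved none of the 7 across a ratio of 1.

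The mix of classes differed between the libraries, since aqp8a.1-high cells made up 48.0% and 22.0% of the endothelial cells in the libraries labelled isl1-derived and other and stab2-high cells 28.5% and 54.1%. With the 4 classes weighted equally the ratios came closer to 1. They were 1.87 for esm1, 1.56 for apln, 0.803 for aplnra, 1.18 for aplnrb, 0.793 for tie1 and 0.863 for tek. Angpt2a kept a ratio of 3.62, which rests on 6 UMIs in the library labelled other.

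Within aqp8a.1-high cells esm1 had a ratio of 1.75 (1.62 to 1.90) between the libraries and apln of 1.66 (1.43 to 1.94). Aplnra had a ratio of 0.567 (0.485 to 0.666), tie1 of 0.697 (0.623 to 0.783) and tek of 0.662 (0.538 to 0.821). Angpt2a had 89 UMIs against 1, a ratio of 14.7 (2.57 to 586). The share of this class that fell in a cluster led by esm1 differed by library. It was 303 of 657 for the library labelled isl1-derived and 29 of 129 for that labelled other. Within that cluster as a whole, esm1 was at 2575 and 2367 CPM and apln at 730 and 827. Both genes are among the leading genes by which the cluster is named, so these levels only describe it. Of the 6 genes with 100 UMIs, 0 were 2-fold higher or lower in aqp8a.1-high cells, where 1.5% and 1.29% of 6351 genes were.

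Within stab2-high cells esm1 had 42.1 and 23.6 CPM, a ratio of 1.79 (1.28 to 2.52), where blood progenitors had 12.6 and 6.37 CPM. Aplnra was nearer to equal, with a ratio of 0.895 (0.833 to 0.963), and tie1 had 0.813 (0.750 to 0.881). Tek had a ratio of 0.871 (0.761 to 0.999), and of 1.14 after thinning to 2000 UMIs. Apln and aplnrb had intervals that hold 1, at 0.696 to 2.22 and 0.790 to 1.13. In cells with neither splitting gene esm1 had a ratio of 3.32 (2.45 to 4.61), the farthest from 1 of the 4 classes, while aplnra had 1.03 (0.828 to 1.29).

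**Figure D3:**
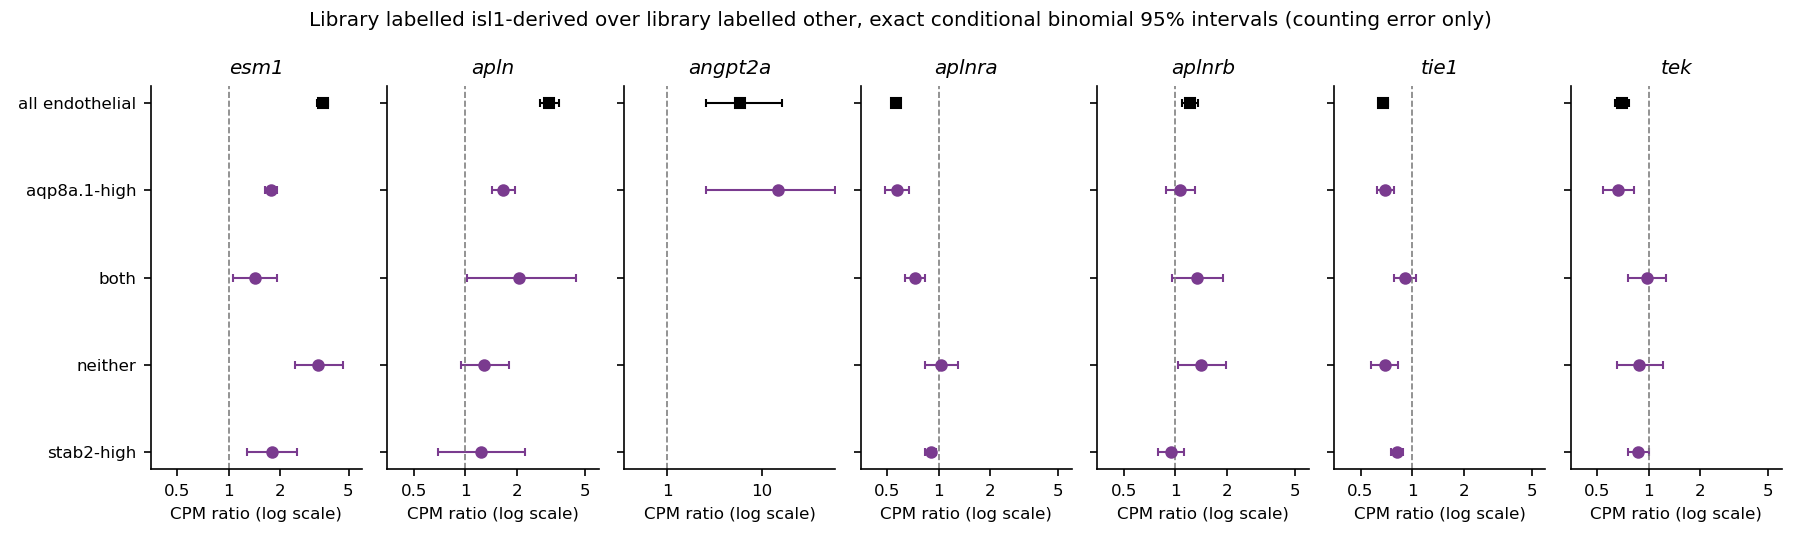
CPM ratios between the libraries, that labelled isl1-derived over that labelled other (log scale, dashed line at 1) in all endothelial cells (squares) and in each class (circles), with exact conditional binomial 95% intervals. The upper end of the angpt2a interval in aqp8a.1-high cells, 586, runs off the axis, and angpt2a is not drawn where fewer than 10 UMIs or an empty sum were left. Esm1 lies right of 1 in every class, and aplnra lies left of 1 in all but the cells with neither splitting gene.

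Esm1 and apln RNA was held by few endothelial cells. The 137 cells with most esm1 UMIs, of 1369 in the library labelled isl1-derived, held 74.7% of them, and 59 of 586 cells held 92.0% in the library labelled other. The same numbers of leading cells held 30.4% and 27.9% of the UMIs of tie1, a gate gene, so the gate bears on its spread. For the receptor genes outside the gate the shares were 47.5% and 40.3% (aplnra), 42.6% and 47.0% (aplnrb), and 39.6% and 37.4% (tek). For apln the share was 81.1% in the library labelled isl1-derived, and in the library labelled other only 55 of the 586 cells had any apln UMI. A single cell held up to 187 esm1 UMIs in the library labelled isl1-derived and 59 in the library labelled other.

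Most esm1 RNA lay in 1 cluster with esm1, cxcr4a and apln among its leading genes, 78.7% of all esm1 UMIs in the library labelled isl1-derived (325 cells) and 61.0% in the library labelled other (34 cells). Its levels in the libraries labelled isl1-derived and other were 2575 and 2367 CPM of esm1, 730 and 827 of apln, and 203 and 200 of aplnrb. Tek was low in it, at 41.1 CPM (33.7 to 49.7) and 72.7 (41.6 to 118), and so was aplnra, at 77.6 (67.2 to 89.1) and 45.4 (21.8 to 83.6). The cluster held 82.7% of all angpt2a UMIs of the library labelled isl1-derived, whereas 5 of the 6 in the library labelled other, 83.3%, lay in a cluster led by ap1s3b and col11a1b. Since esm1 and apln lead the cluster, these values describe it.

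Aqp8a.1-high cells outside that cluster kept esm1 at 338 and 276 CPM in the libraries labelled isl1-derived and other. They had apln at 49.8 and 17.9 CPM, aplnra at 167 and 272, tie1 at 329 and 432, and tek at 114 and 138. With the esm1-led cluster left out of all endothelial cells, an alternative chosen after the data were seen, the ratios between the libraries were 2.23 for esm1, 2.0 for apln, 0.645 for aplnra and 1.34 for angpt2a.

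**Figure D4:**
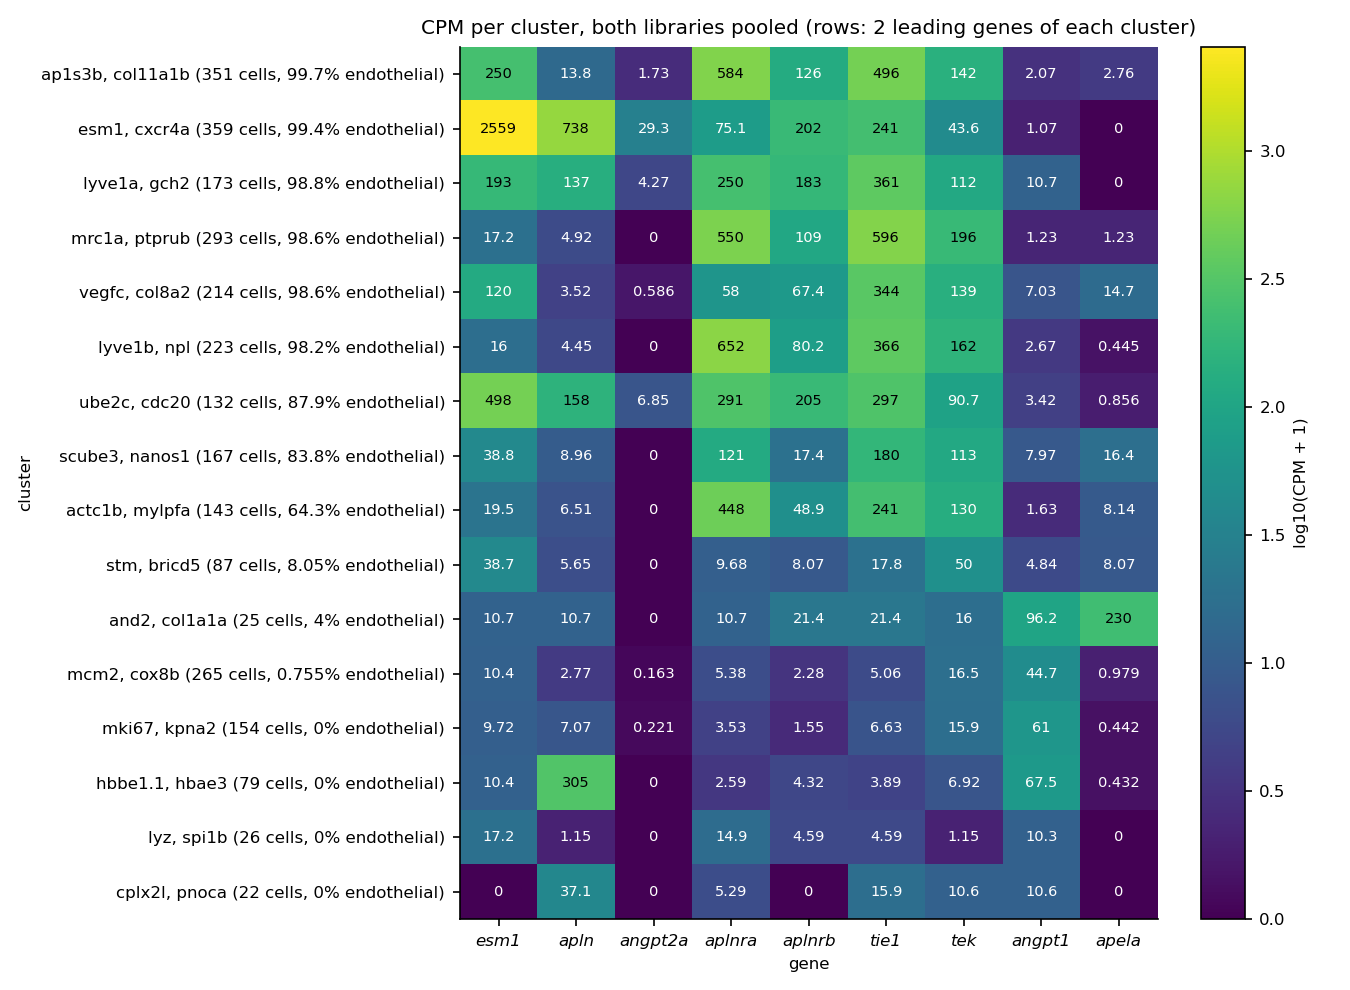
CPM of the 7 genes and of angpt1 and apela in the 16 clusters of at least 20 cells, both libraries pooled, ordered from top to bottom by the share of endothelial cells. Colours show log10(CPM + 1) and the numbers give CPM. The esm1-led cluster shows the highest esm1, apln and angpt2a values among the clusters drawn, the blood cluster labelled by hbbe1.1 and hbae3 the next apln value, and the cluster led by and2 the highest apela value.

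Other endothelial clusters differed in a graded way. A cluster led by vegfc and holding the artery gene gja5a among its leading genes had apln at 3.52 CPM and aplnra at 58.0, with tek at 139. The clusters led by mrc1a and by lyve1b, genes of venous and lymphatic endothelium, had aplnra at 550 and 652 CPM, esm1 at 17.2 and 16 and apln at 4.92 and 4.45. A cluster of dividing cells led by ube2c had esm1 at 498 CPM, apln at 158 and aplnrb at 205. A cluster led by lyve1a, with the lymphatic gene prox1a among its leading genes, had apln at 137 CPM. Its aplnrb level was 183 CPM and its aplnra level 250.

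Apln and angpt2a stood higher in endothelial cells with an esm1 UMI than in those without. An apln UMI was found in 46.0% of cells with an esm1 UMI and 7.01% of cells without, in the library labelled isl1-derived. In the library labelled other the shares were 23.9% and 5.92%. Apln stood at 406 CPM (389 to 424) in the 556 endothelial cells with an esm1 UMI and at 24.0 (20.3 to 28.1) in the 813 without, in the library labelled isl1-derived. Of the 96 angpt2a UMIs, 95 lay in cells with an esm1 UMI. Tek had 71.6 CPM (64.5 to 79.3) in cells with and 145 (136 to 155) in cells without, and aplnra 192 (180 to 204) and 361 (346 to 376). For the library labelled other, apln had 216 CPM (188 to 247) in 113 cells with an esm1 UMI and 16.4 (12.3 to 21.5) in 473 without. All 6 angpt2a UMIs of that library lay in 3 cells, each with an esm1 UMI.

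For apln, tek and aplnra the same order held after thinning to 2000 UMIs. Thinned angpt2a had 19 UMIs in cells with an esm1 UMI and 0 in cells without, in the library labelled isl1-derived. In the library labelled other it had 1 and 1, which give no order. Apln in the library labelled isl1-derived then had 683 CPM in cells with an esm1 UMI and 44.2 in cells without, tek 42.0 and 149, and aplnra 137 and 357. In the library labelled other apln had 507 and 23.7 CPM and tek 98.6 (53.9 to 165) and 172 (147 to 200), intervals that overlap. Of 199 thinned cells with an apln UMI in the library labelled isl1-derived, 32.7% (26.2% to 39.7%) had an aplnrb UMI and 12.6% (8.30% to 18.0%) an aplnra UMI, against 22.2% (19.8% to 24.8%) and 35.6% (32.8% to 38.6%) of the 1108 without. In 35 such cells of the library labelled other the aplnrb share was 28.6% (14.6% to 46.3%), against 16.5% (13.4% to 20%) without, intervals that overlap. Unthinned, the aplnrb shares of the library labelled isl1-derived were 72.5% and 44.0%. Cells are not replicates, and a UMI is found more often in deep cells.

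**Figure D5:**
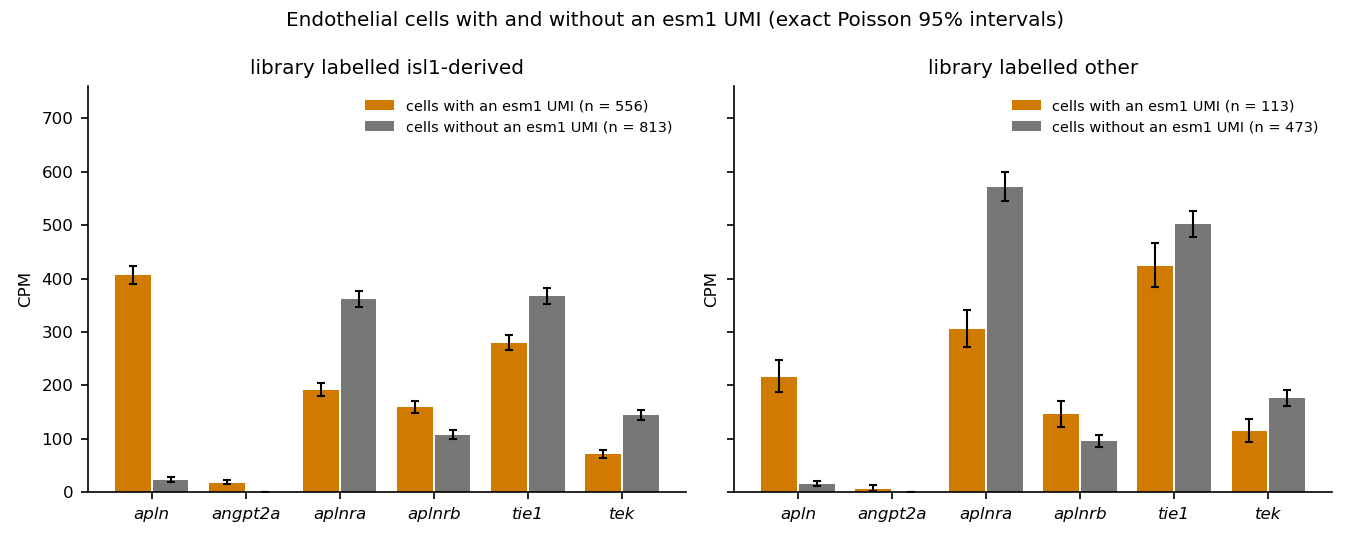
CPM of the other 6 genes in endothelial cells with (orange) and without (grey) an esm1 UMI, for the library labelled isl1-derived at left and the library labelled other at right, with exact Poisson 95% intervals. Apln bars reach 406 and 216 CPM in cells with an esm1 UMI and 24.0 and 16.4 CPM in cells without, and aplnra and tek bars run the other way.

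The wider apelin list of 4 genes adds apela, a second ligand of the receptors. Apela had 57 and 19 endothelial UMIs in the libraries labelled isl1-derived and other, too few to count as measured. Of the 3 list genes measured in endothelial cells, 1 was at least 1.5-fold higher (apln) and 1 lower (aplnra) in the library labelled isl1-derived, where 5.08% and 7.8% of all genes were. The median log2 ratio of the 3 genes was 0.28 against -0.07 for all genes.

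Of 10 angiopoietin-Tie genes, 6 were measured in endothelial cells, and 1 (angpt2a) was at least 1.5-fold higher and 0 lower in the library labelled isl1-derived, where 5.08% and 7.8% of all genes were. Angpt2a was measured only through its UMIs in that library, so its count is a description. The ligand genes angpt1, angpt2b and angpt4 and the gene of the Tie1-binding matrix protein svep1 had no more than 38 endothelial UMIs in a library. Ptprb, encoding the phosphatase that acts on Tie2, had 215 and 224 CPM in the libraries labelled isl1-derived and other, a ratio of 0.960 (0.890 to 1.04). The gene foxo1a, a transcription factor downstream of Tie2, had 225 and 217 CPM, a ratio of 1.04 (0.964 to 1.12). Against blood progenitors 5 of 6 measured genes of this list were at least 1.5-fold higher and 1, angpt1, lower, where 45.7% and 25.6% of all genes were. The gate gene tie1 is among the 5, and angpt1, with 38 endothelial UMIs, was measured only through the blood progenitor sum. The choice of cells bears on this count, which is a description.

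Of 18 listed tip cell genes, 17 were found in the feature list and measured in endothelial cells. In the library labelled isl1-derived 7 were at least 1.5-fold higher (esm1, apln, angpt2a, cxcr4a, dll4, pdgfbb and adma) and 2 lower (unc5b and nid2a), where 5.08% and 7.8% of all genes were, with a median log2 ratio of 0.05 against -0.07 for all genes. Angpt2a counts among them only through its UMIs in the library labelled isl1-derived. Cxcr4a, a chemokine receptor gene, had 142 and 47.8 CPM in the libraries labelled isl1-derived and other, a ratio of 2.96 (2.56 to 3.45). Dll4, a Notch ligand gene, had 219 and 139 CPM, a ratio of 1.57 (1.44 to 1.72). Kdrl, a VEGF receptor gene, had a ratio of 1.22 (1.15 to 1.29), and plvapb, of fenestrated endothelium, of 0.922 (0.899 to 0.946). Within aqp8a.1-high cells 4 of 14 measured list genes were at least 1.5-fold higher (esm1, apln, cxcr4a and adma) and 0 lower, where 5.61% and 9.65% of all genes were. Adma had 194 and 14 UMIs there, so it was measured only through the library labelled isl1-derived.

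By class, the tip cell list split. In aqp8a.1-high against stab2-high cells of the library labelled isl1-derived, 7 of 15 measured genes were at least 1.5-fold higher and 3 lower, where 14.5% and 16.9% of all genes were. Of 13 measured in the library labelled other, 8 were higher and 3 lower, where 11.6% and 19.5% of all genes were. The list's median log2 ratios were 0.57 and 0.63 in the libraries labelled isl1-derived and other, against 0.04 and 0.02 over all genes. Flt4, unc5b and plvapb were the 3 lower genes in both libraries. Flt4, the VEGF-C receptor gene, had ratios of 0.485 and 0.484 in the libraries labelled isl1-derived and other, and cxcr4a of 51.3 and 48.8.

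Across the 16 clusters, each gene had close companions by Pearson's r of log2(CPM + 1) among 5824 genes, given as a description of points that share libraries and differ in depth. Esm1 was nearest to nr5a2 (r = 0.92), a nuclear receptor gene, prdm1a (0.90) and cdc42se1 (0.89). Angpt2a was nearest to wnk1a (0.87), a kinase gene, esm1 (0.86) and prdm1a (0.86). Apln had less close companions, ubqln4 (0.80), anp32e (0.73) and sox4a (0.73).

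Aplnra was nearest to the lysosomal genes prcp (0.98) and lamp2 (0.97) and to gpr182 (0.97), a receptor gene of venous and lymphatic endothelium. Aplnrb was nearest to parvab (0.98), f2rl2 (0.97) and tmem88a (0.96). Tie1 was nearest to ccm2l (0.99), col18a1b (0.99) and arap3 (0.99), and tek to ugt1b5 (0.96), myo7aa (0.95) and tjp2b (0.94). Among the 7 genes, esm1 and apln had r = 0.48 over the 16 clusters and 0.87 over the 9 clusters that were mostly endothelial by the gate, 1 of them led by muscle genes. Esm1 and tek had 0.45 over the 16 clusters and -0.84 over the 9. Over the 9, only angpt2a kept any of its 3 companions, which was esm1 (0.95). The nearest genes there were cnn3b (0.98) for esm1, zic2a (0.99) for apln, igfbp2a (0.98) for aplnra and cab39l1 (0.95) for aplnrb. For tie1 the nearest was vps41 (0.93) and for tek snx9a (0.98). The companions thus depend on the clusters taken.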

How the data were processed

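Tails of 2 sorted fractions gave 1 10x Genomics library (Chromium Single Cell v3.1) each, per the labels. The authors deposited UMI counts per gene and barcode, made with Cell Ranger (5.0.0 per the submitters' processing notes, 5.0.1 per the file headers) on GRCz11. Symbols shared by 1174 features were summed. Coordinates and sequences were not used here.

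Kept barcodes had 500 or more genes and less than 10% of UMIs from mitochondrial genes, removing 42 from the library labelled isl1-derived and 21 from that labelled other. Scrublet (scanpy 1.11.5) removed a further 15 and 1, so few that doublets may remain. Leiden clustering used 2000 variable genes, 30 components, 15 neighbours and resolution 1.0. UMIs were summed per library and class and scaled to CPM. Levels have exact Poisson, shares exact binomial (Clopper-Pearson) and ratios exact conditional binomial intervals, and 0 was bounded by 3 counts. Genes with 100 or more UMIs over both sums together counted as measured, and were described by a ratio of 2, or 1.5 within lists, a description of size only. Log2 ratios had 0.5 added to each count. Groups came from the sample labels.

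The 7 genes, the gene lists and the gates were chosen with earlier results of these data known. The genes named are these 7, list members, and the 3 genes most like each across clusters of at least 20 cells with at least 500 UMIs. Gata1a, alas2, myb, cdh5, list genes named beyond those of most UMIs, and the clusters described were chosen after their values were seen. Endothelial cells were set against blood progenitors in the library labelled isl1-derived only, since the other held 34 such cells, under the minimum of 50. The ratio calculation was also run on simulated independent Poisson counts, which the intervals assume. That run checked the calculation only, since UMIs of the real data are bunched in cells. Alternatives covered filters, doublets, gates, class splits, TMM scaling (edgeR 4.0.16), thinning, equal cell weights, UMI minimums and leading cells.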

Additional observations from a re-analysis of the deposited data

How the results depend on the processing

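No paired analysis was possible because each group has 1 library. Of 36 gene-by-comparison ratios of the 7 genes, 23 were past 1.5-fold, and all 23 stayed on the same side of 1 under every alternative that gave a ratio. The 23 include tie1 in endothelial cells over blood progenitors, whose side was fixed by the choice of cells. They also include angpt2a between the libraries, measured only through the library labelled isl1-derived. Apln in aqp8a.1-high over stab2-high cells is among them too, measured only through aqp8a.1-high cells. The count of 23 is therefore a description. Ratios with under 100 UMIs or an empty sum are not among the 36. Of angpt2a only the endothelial ratio between the libraries is included, and the apln ratio between the libraries in stab2-high cells is left out. Without the 3 leading cells no angpt2a UMI was left in endothelial cells of the library labelled other, so that alternative gave no ratio. Of 437 alternative values, 375 moved by less than the counting interval and 62 by more. In endothelial cells the ratio between the libraries ran from 1.87 to 4.15 for esm1 and from 1.56 to 3.95 for apln, the lowest with classes weighted equally and the highest without the 3 leading cells. For angpt2a it ran from 1.34, without the esm1-led cluster, to 8.20, with cells weighted equally. The tek ratio between the libraries in stab2-high cells was 0.871, and 1.14 after thinning, so it has no order. Counts of genes past 2-fold depend on depth by construction, since thinning and the minimums change how many genes are measured. Between the libraries, 154 genes were higher and 109 lower. These were 61 and 43 after thinning, 378 and 389 at a minimum of 30 UMIs, 59 and 47 at 300 UMIs, and 219 and 59 with TMM factors, which raised the share of higher genes to 78.8%, against 58.6% without them. Between aqp8a.1-high and stab2-high cells 136 genes were higher and 389 lower in both libraries, against 39 and 162 after thinning, 308 and 652 at 30 UMIs and 53 and 178 at 300. Of the 7 genes, 2 were higher there, and 1 after thinning or at 300 UMIs, where too few apln UMIs were left. Between endothelial cells and blood progenitors 3632 genes were higher and 1783 lower, against 1838 and 590 after thinning, 2322 and 1148 at 300 UMIs, and 3034 and 2397 with TMM factors, a share of higher genes of 55.9% against 67.1%. TMM shifted log2 ratios by 0.22 within aqp8a.1-high cells, 0.11 within stab2-high cells and -0.32 against blood progenitors. Of kept cells, 15.4% and 14.8% in the libraries labelled isl1-derived and other lay between 0.5 and 2 times the endothelial gate. Of endothelial cells, 19.65% and 20.99% lay in this range of the stab2 split, and fewer in that of the aqp8a.1 split. Of the 646 and 122 cells outside the endothelial gate, 46.3% and 20.5% lay in this range of the blood progenitor cut of 3. In the library labelled isl1-derived, blood progenitors were thus the least sharply bounded of these classes.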

Other observations

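Apela, the second apelin receptor ligand gene, stood highest outside the endothelium. A cluster of 25 cells led by and2 and col1a1a, genes of fin fold fibres and of collagen, held it at 230 CPM, with 13 and 12 cells from the libraries labelled isl1-derived and other. Angpt1 stood at 96.2 CPM in the same cluster. A cluster of 87 cells led by stm and bricd5, of which 58 counted as blood progenitors, had tek at 50 CPM and tie1 at 17.8. A cluster of 22 cells led by cplx2l and pnoca, all from the library labelled other, had apln at 37.1 CPM. This level rests on no more than 11 UMIs. That was the number in all non-endothelial cells of that library outside the esm1-led cluster and the blood cluster with apln.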
